A study of Homo sapiens with 2 samples.

Results

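The oestrogen receptor α (ERα) peaks described here are those near 7 genes that lend their names to breast cancer risk loci: TOX3, MAP3K1, PTHLH, MRPS30, RAD51B, TERT and KLF4. A peak was taken when its centre lay within 200 kb of the gene's start site on the hg19 build, which gave 13 of the 12688 peaks listed. They came from 3 of the 7 loci, with 5 peaks at KLF4, 4 at MAP3K1 and 4 at RAD51B, while TOX3, PTHLH, MRPS30 and TERT had 0. Counts per locus are for the stretch around the gene's start. The positions of risk variants were not used, so the counts need not describe the surroundings of those variants.

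The data are 1 list of ERα peaks in T47D cells, an established ER-positive human breast cancer cell line. In both libraries the cells had spent 48 h in medium without steroids and had then received 10 nM 17β-estradiol, a steroid hormone that activates ERα, for 45 min. The library of ERα-bound DNA was made with the H-20 antibody and the input library with none, and the list sets the first against the second. There was 1 library of each kind and no untreated library was analysed here, so that no value has a replicate error, no test was possible, and a peak describes occupancy after estradiol, not a response to it. Neither the read depth nor gene expression was at hand, so the label of the cells was not checked against marker genes and a missing peak does not show that ERα was absent.

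ERα is a ligand-activated transcription factor. It binds DNA as a dimer at the oestrogen response element, a pair of inverted half-sites, and in breast cancer cells most of its sites lie in enhancers far from gene starts. Breast cancer risk loci are stretches of the genome in which common inherited variants are associated with the disease. Most such variants are non-coding, and a locus is often named after a nearby gene that need not be its target.

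No peak reached the start of any of the 7 genes. The nearest peak centre to a start lay 51.2 kb away, at KLF4, so 0 of 7 starts had a peak within 50 kb. Over positions set every 10 kb along chromosomes 1 to 22 and X, 22.9% had a peak that near. Within 100 kb, 2 of 7 starts had a peak, against 36.5% of positions, and within 500 kb 6 of 7, against 75.8%. With so few genes none of these counts is set apart from its background, and the positions include unsequenced stretches. No hg19 sequence was used here, but the RefSeq table of promoters, which follows GRCh38.p14, has entries for 5 of the 7 genes, all but TOX3 and MAP3K1. The 250 bases before the table's start are shown for KLF4, which had the most peaks of the 7 loci. They are also shown for MRPS30, the member with a half-site in this window. Capitals mark a half-site, GGTCA or its reverse complement TGACC, and both sequences read 5′ to 3′ on the strand of the gene. The KLF4 stretch is chr9:107489770-107490019 on the minus strand and the MRPS30 stretch is chr5:44808697-44808946 on the plus strand, both of GRCh38.p14.

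KLF4: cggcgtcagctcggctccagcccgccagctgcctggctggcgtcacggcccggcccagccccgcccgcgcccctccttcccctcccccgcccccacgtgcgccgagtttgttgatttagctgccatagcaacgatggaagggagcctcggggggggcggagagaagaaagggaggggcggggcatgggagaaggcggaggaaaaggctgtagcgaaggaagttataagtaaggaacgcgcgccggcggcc
MRPS30: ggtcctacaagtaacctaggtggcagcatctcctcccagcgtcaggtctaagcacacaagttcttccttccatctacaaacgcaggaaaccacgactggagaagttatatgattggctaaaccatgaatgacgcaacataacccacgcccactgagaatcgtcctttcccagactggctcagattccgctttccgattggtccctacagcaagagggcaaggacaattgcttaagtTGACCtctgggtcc

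The MRPS30 window held 1 half-site and the KLF4 window 0. The windows of PTHLH, RAD51B and TERT, those of RAD51B being 2 overlapping entries, also held 0. Among all 35116 promoter windows of 250 bases in the table, 32.6% held at least 1 half-site on either strand, so the letters are common. The full element, GGTCANNNTGACC, was in 0 of the members' windows and in 14 (0.040%) of all windows. A match is a run of letters and not a site. The table's starts were not compared with the hg19 starts, since the builds differ. The counts, those of RAD51B included, thus need not describe the starts from which peaks were measured.

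Whether a locus held a peak at all was near the background of the list. Peaks were present at 3 of 7 loci, whereas 53.6% of the 7578 windows of 400 kb that tile chromosomes 1 to 22 and X held at least 1. On the chromosomes concerned this share was 54.9% on chromosome 5, 54.1% on 9, 56.9% on 12, 51.1% on 14 and 50.7% on 16. The loci that did hold peaks held several. The 5 peaks at KLF4 were matched or exceeded in 10.9% of all windows and in 10.8% of those on chromosome 9. The 4 peaks at MAP3K1 and at RAD51B were matched or exceeded in 15.2% of all windows, in 13.3% of those on chromosome 5 and in 13.4% of those on chromosome 14. Among windows that held a peak, as these 3 loci do, 20.3% held 5 or more and 28.4% held 4 or more. Over all 7 loci the mean was 1.86 peaks, close to the mean of 1.66 over all windows. These windows include unsequenced and gene-poor stretches, and they are not centred on gene starts as the loci are.

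**Figure D1:**
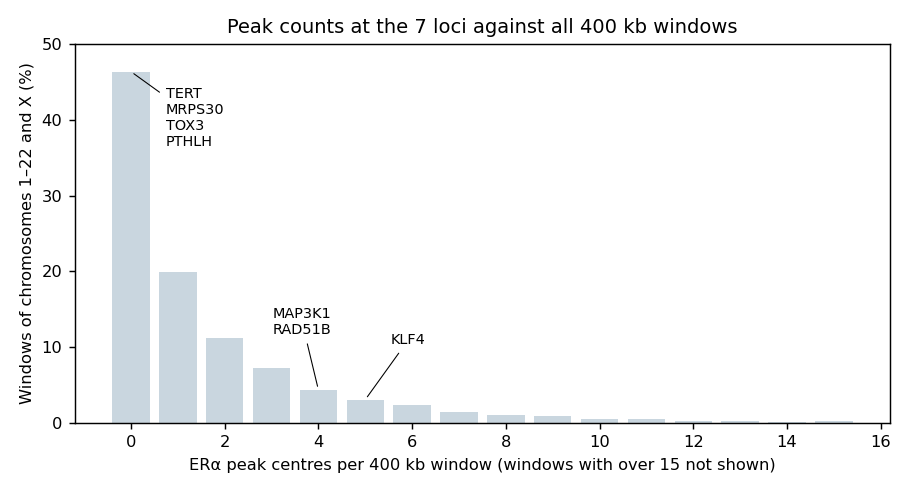
Bars give the percentage of 400 kb windows of chromosomes 1 to 22 and X (y axis) with each number of ERα peak centres (x axis), and the gene names mark the count within 200 kb of each start. The 4 loci without a peak fall in the bar at 0, which holds 46.4% of windows, and MAP3K1, RAD51B and KLF4 fall at 4, 4 and 5.

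KLF4 encodes a zinc-finger transcription factor that is known for its part in epithelial differentiation and in the reprogramming of somatic cells to pluripotency. Its start is at position 110252047 of chromosome 9, and the gene lies on the minus strand, so that higher coordinates are upstream. It had the most peaks of the 7 loci, 3 upstream and 2 downstream. Its highest peaks were both upstream. The one at 110390747 to 110391336 scored 558.12, with its centre 139.0 kb from the start. The one at 110303669 to 110304288 scored 390.49 at 51.9 kb. These are the 2 of the 13 peaks among the highest-scoring 25% of the list, which begin at 347.16.

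The third upstream peak of KLF4, at 110309990 to 110310506 with a score of 174.19, was 6.27 kb from the second. Downstream, the peak at 110200252 to 110201439 scored 196.79 with its centre 51.2 kb from the start, and it was the widest of the 13 at 1188 bp. The start of KLF4 thus lay almost midway between its nearest peaks, 51.2 and 51.9 kb away. The last, at 110152013 to 110152564 and 99.8 kb downstream, scored 89.73, and it is the only KLF4 peak below the list median of 128.27. In the order of named protein-coding genes in the RefSeq table (symbols starting with LOC left out), RAD23B and ZNF462 are the next 2 on the lower side and ACTL7B and ACTL7A on the higher side. No peak was assigned to any of them or to KLF4.

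MAP3K1 encodes a kinase at the head of MAP kinase cascades, and it is itself recurrently mutated in luminal breast tumours. Its start is at position 56110900 of chromosome 5 and it lies on the plus strand. All 4 peaks were upstream and none lay within 200 kb downstream, where the nearest had its centre 235.4 kb from the start and scored 74.41. The peak nearest to the start, at 56052745 to 56053308, scored 267.23 with its centre 57.9 kb away. The highest of the 4 was at 55964766 to 55965669 and scored 340.16, just under the highest-scoring 25%, at 145.7 kb. It was also the widest of the locus at 904 bp.

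The other 2 MAP3K1 peaks were weak. The one at 55977822 to 55978237, with its centre 132.9 kb from the start, scored 59.08, which only 13.9% of the listed peaks matched or fell under. The one at 55936920 to 55937331, the farthest of the 13 peaks at 173.8 kb, scored 98.07. The 4 centres were 12.8 kb or more apart, so no pair of them was within 10 kb. ANKRD55 and IL6ST, a receptor subunit for cytokines of the interleukin 6 family, are the next protein-coding genes on the upstream side, and SETD9 and MIER3 on the downstream side.

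RAD51B encodes a protein that acts in the repair of DNA breaks by homologous recombination. Its start is at position 68286496 of chromosome 14 on the plus strand, and its transcribed body is very long and runs past the end of the window. It had as many peaks as MAP3K1, but all 4 scored below the list median. Of these, 3 were downstream of the start, in the direction of transcription, and no annotation of the build was used to place them in exons or introns. The peak at 68407104 to 68407563, with its centre 120.8 kb from the start, scored 62.30. A pair followed with centres 1.94 kb apart: the peak at 68429025 to 68429435 scored 104.84 at 142.7 kb, and the peak at 68430946 to 68431397 scored 95.02 at 144.7 kb. Whether the pair is 1 site or several cannot be read from the list.

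The only RAD51B peak upstream, at 68133801 to 68134180, was the narrowest of the 13 at 380 bp and also the lowest, with a score of 54.42 against a minimum of 50 in the list. Its centre lay 152.5 kb from the start. ZFYVE26 and RDH12 are the next protein-coding genes on that side, and ZFP36L1 and ACTN1 come after RAD51B on the other. The stretch around the start without any peak measured 272.9 kb, against 102.2 kb at KLF4 and 292.8 kb at MAP3K1.

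**Figure D2:**
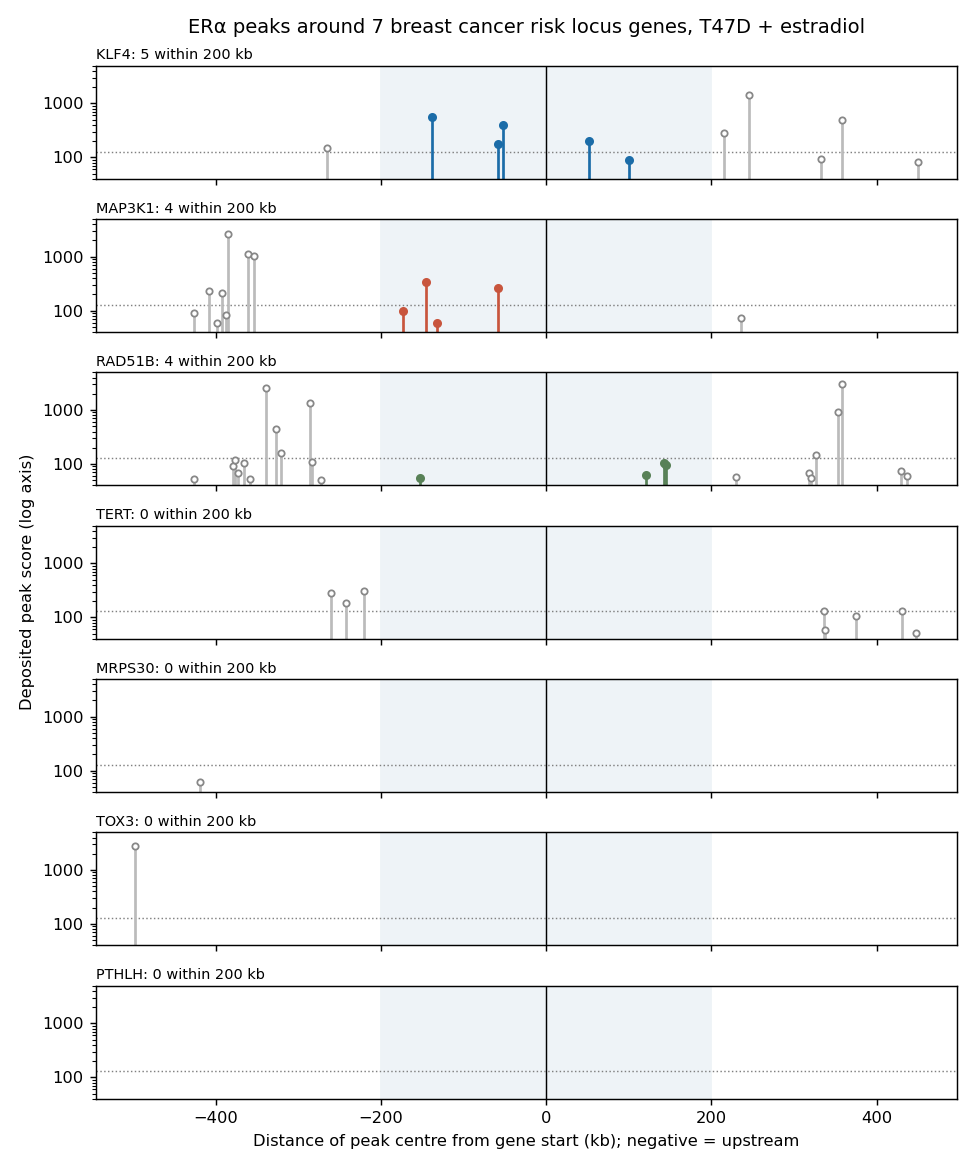
Each panel shows 1 gene, with the distance of ERα peak centres from its start in kb on the x axis (negative is upstream) and the deposited peak score on a logarithmic y axis. Filled points are the 13 peaks within 200 kb (shaded), open points are peaks from 200 to 500 kb, and the dotted line is the list median of 128.27. The filled points of KLF4 flank the start, those of MAP3K1 are all upstream and those of RAD51B are all under the line.

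The loci without a peak differed in how far away the nearest one was. TERT encodes the catalytic subunit of telomerase, which maintains chromosome ends. Its start, at position 1295162 of chromosome 5 on the minus strand, was the closest of the 4 to a peak: on the upstream side, the peak at 1516148 to 1516681 had its centre 221.3 kb away and scored 309.50. On the downstream side the first was at 958888 to 959421, 336.0 kb away, with a score of 133.58. The peak-free stretch between them was 556.7 kb long. CLPTM1L, SLC6A3, SLC6A18 and SLC6A19 are the 2 nearest protein-coding genes on either side of TERT.

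MRPS30 encodes a protein of the mitochondrial ribosome. Its start is at position 44809027 of chromosome 5 on the plus strand. On its upstream side the next protein-coding genes are FGF10, a growth factor with a part in mammary gland development, and NNT. The nearest peak, at 44389284 to 44389649 on the upstream side, lay 419.6 kb away and scored 61.64. The next, on the downstream side at 45870287 to 45870756, lay 1061 kb away and scored 133.83. MRPS30 thus had a single peak within 500 kb, and a weak one, in a peak-free stretch of 1481 kb.

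TOX3 encodes a nuclear protein with an HMG box, a DNA-bending domain. Its start is at position 52581714 of chromosome 16 on the minus strand. The nearest peak was far but strong: on the upstream side, the peak at 53079179 to 53080319 had its centre 498.0 kb away, scored 2753.62 and was 1141 bp wide. On the downstream side the first peak, at 50740059 to 50740649, lay 1841 kb away and scored 1844. The stretch between them was 2339 kb long, although chromosome 16 carried 5.76 peaks per Mb, the highest density of the 5 chromosomes concerned. CHD9NB and CHD9 are the next protein-coding genes upstream, and HNRNPA1L3 and SALL1 downstream.

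PTHLH encodes parathyroid hormone-related protein, a secreted factor with roles in mammary gland development and in the bone metastasis of breast cancer. Its start, at position 28124916 of chromosome 12 on the minus strand, was the most isolated of the 7. The nearest peak, downstream at 26348336 to 26348781, lay 1776 kb away and scored 135.61. Upstream, the first was at 30951727 to 30952170, 2827 kb away, with a score of 58.37. The peak-free stretch was 4603 kb long, and PTHLH was the only member with no peak within 500 kb. KLHL42 and MANSC4 lie next to it on the downstream side and CCDC91 and FAR2 on the upstream side.

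In order of the distance from the start to the nearest peak, the loci ran from KLF4 (51.2 kb) through MAP3K1 (57.9 kb), RAD51B (120.8 kb), TERT (221.3 kb), MRPS30 (419.6 kb) and TOX3 (498.0 kb) to PTHLH (1776 kb). The median of the 7 was 221.3 kb, against 174.7 kb for positions set every 10 kb along the chromosomes. The loci ran from nearer to a peak than most of these positions to farther than most. None had a peak within 50 kb, whereas 22.9% of positions did. At KLF4, 76.7% of positions were at least as far from a peak, at TOX3 24.3% were and at PTHLH 6.34%. On chromosome 12 itself, 2.23% of positions were at least as far from a peak as PTHLH. These are shares of positions in 1 list and not tests, and gene starts are not spread evenly over positions. The positions also include unsequenced stretches, which can hold no peak and were not removed.

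**Figure D3:**
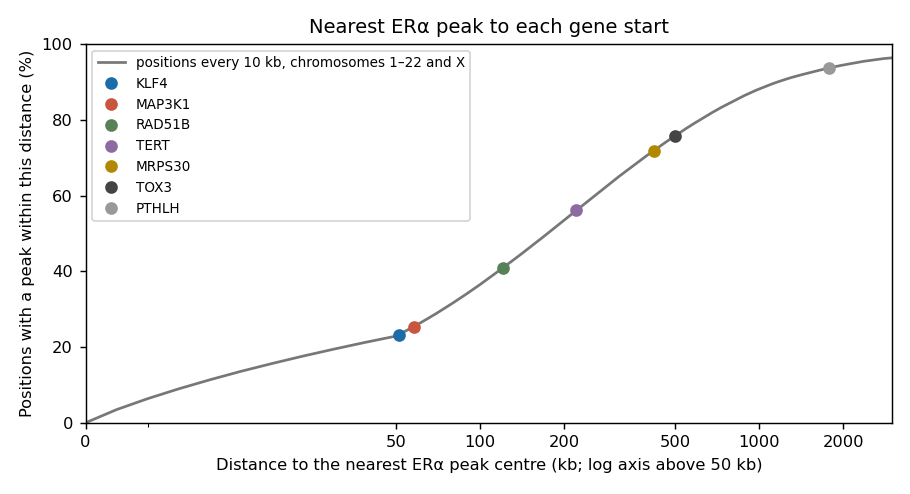
The line gives the percentage of positions, set every 10 kb along chromosomes 1 to 22 and X, that have an ERα peak centre within the distance on the x axis (kb, logarithmic above 50 kb), and each point is the start of 1 gene placed on it at its nearest peak. The points run from KLF4 at 51.2 kb to PTHLH at 1776 kb.

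The 13 peaks were of middling strength and none was among the strongest of the list. The score is the authors', its scale is not stated, and it serves here to rank peaks only. The lowest of the 13 scored 54.42, the median was 104.84 and the highest 558.12, against a median of 128.27 and a maximum of 3230.05 for the list. Of the 13, 6 (46.2%) were at or above the list median, where 50% of all peaks are by construction. Among the highest-scoring 25% of the list there were 2 (15.4%). By locus, 4 of the 5 peaks at KLF4 were at or above the list median, 2 of 4 at MAP3K1 and 0 of 4 at RAD51B. The median scores were 196.79 at KLF4, 182.65 at MAP3K1 and 78.66 at RAD51B, and the range at MAP3K1, from 59.08 to 340.16, overlapped both others. KLF4 and RAD51B also overlapped, since the lowest KLF4 peak, at 89.73, was under the 2 highest RAD51B peaks.

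In width the 13 peaks resembled the list, with a median of 517 bp against 505 bp and a range from 380 to 1188 bp. Another peak centre lay within 10 kb of 4 of them (30.8%), the pair at RAD51B and the pair upstream of KLF4, compared with 41.3% of all peaks. By side, 8 were upstream of their gene's start and 5 downstream. By distance, 4 lay between 50 and 60 kb from the start, 3 at KLF4 and 1 at MAP3K1, and the other 9 beyond 90 kb.

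**Figure D4:**
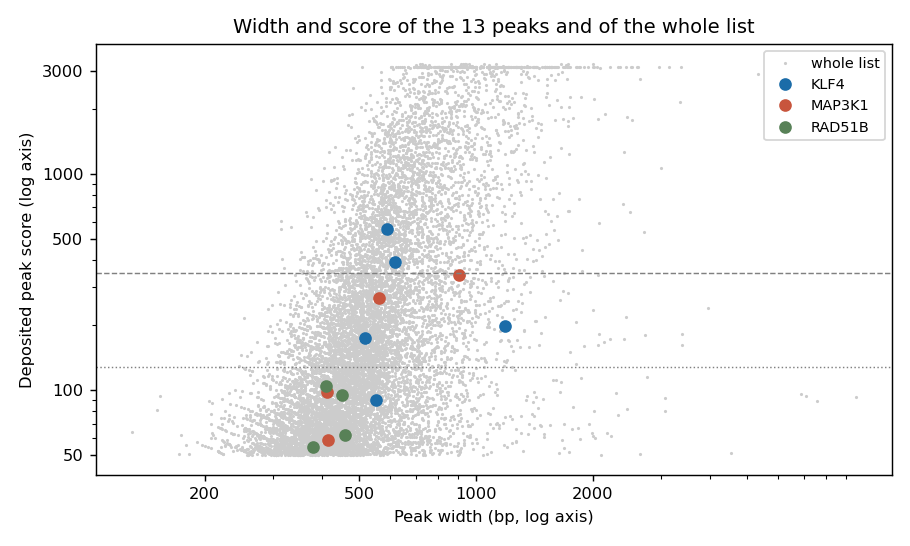
Each grey point is 1 peak of the list, with its width in bp and its deposited score on logarithmic axes, and coloured points are the 13 peaks at KLF4, MAP3K1 and RAD51B. The dotted and dashed lines are the list's median and upper quartile of score, 128.27 and 347.16; above the dashed line stand 2 KLF4 peaks, and all 4 RAD51B peaks lie below the dotted line.

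The edge of the 200 kb window fell in a stretch without peaks at these loci. Just inside it were the MAP3K1 peaks at 173.8 kb (score 98.07) and 145.7 kb (score 340.16) and the RAD51B peak at 152.5 kb (score 54.42). Just outside were the KLF4 peak at 215.4 kb (score 279.85), the TERT peak at 221.3 kb (score 309.50) and the RAD51B peak at 229.8 kb (score 57.34).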

How the data were processed

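ERα-bound DNA and input DNA were sequenced from T47D cells, 1 library each. The authors deposited 1 list of peaks with a score for each peak, on a scale not given in the sources used here. Peak names carry the prefix of MACS, per the file. Bowtie 0.12.9, CASAVA 1.8, HOMER and the build hg19 appear in the submitters' processing notes without their roles. For the read depth, the threshold and version of the caller, and the handling of duplicate or multiply mapped reads, nothing is given in these sources.

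Peaks were counted by centre within 200 kb of 7 hg19 start sites. Starts are printed 1-based. Genome-wide values used hg19 lengths from GenomeInfoDb 1.38.1, and no last peak on 23 chromosomes passed its chromosome's end. Counting was tested on simulated data. Gene order and promoters came from RefSeq tables of GRCh38.p14, with no conversion of coordinates. Strands were taken from the promoter table for 5 genes and from general knowledge for TOX3 and MAP3K1. All 7 genes and all 13 peaks are named, with the nearest peak on each side of a locus without any. The members were chosen with earlier results of these data known. Alternatives were windows of 100 kb and 500 kb, 2 score thresholds, merging within 10 kb and counting by any overlapping base. The tools were matplotlib 3.10.9, pandas 2.3.3 and NumPy 2.4.6 under Python 3.11.15.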

Additional observations from a re-analysis of the deposited data

How the results depend on the processing

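Counting a peak by any base in the window left every locus at its count and 13 peaks in all, and merging peaks within 10 kb left 11, with 4 at KLF4, 4 at MAP3K1 and 3 at RAD51B. Within 100 kb there were 5 peaks, 4 at KLF4, 1 at MAP3K1 and 0 at RAD51B, so that 2 loci held a peak. Within 500 kb there were 58 peaks at 6 loci: 24 at RAD51B, 13 at MAP3K1, 11 at KLF4, 8 at TERT, 1 at MRPS30, 1 at TOX3 and 0 at PTHLH, and RAD51B came first in place of KLF4. Of peaks at or above the median score 6 remained, 4 at KLF4, 2 at MAP3K1 and 0 at RAD51B, and of the highest-scoring 25% of the list 2 remained at 1 locus, both at KLF4, with 0 at MAP3K1 and 0 at RAD51B. TOX3, PTHLH, MRPS30 and TERT stayed at 0 in the alternatives other than 500 kb. No paired analysis was possible because the single ChIP library has no replicate. Weak sites may be missing from the list for want of reads, to an extent that cannot be judged without the depth, and no count here has an error.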

Other observations

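The strongest peaks around these genes lay outside the 200 kb windows. From 200 to 500 kb there were 45 peaks around 6 of the 7 starts, of which 8 (17.8%) scored 1000 or more, as 10.6% of the whole list did, whereas the highest of the 13 within 200 kb scored 558.12. The outer range covers 600 kb per gene against 400 kb and holds more peaks, so the maxima are not like for like. Among the highest-scoring 25% of the list were 11 of the 45 (24.4%).

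RAD51B had the most peaks in this outer range, 20, and 5 of them were among the highest-scoring 25% of the list. On the downstream side, the peak on chromosome 14 at 68644221 to 68645400 scored 2974.97 with its centre 358.3 kb from the start, and its neighbour at 68639362 to 68640421 scored 909.29. On the upstream side, the peak at 67946574 to 67947378 scored 2514.91 at 339.5 kb, and the one at 68000272 to 68000921 scored 1338.82 at 285.9 kb. The inner range of RAD51B, with at most 104.84, thus lay between strong peaks on both sides.

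MAP3K1 had 9 peaks in the outer range, and 8 of them lay upstream between 354.3 and 426.1 kb from the start. The highest was on chromosome 5 at 55724683 to 55725627 and scored 2591.33, followed by 55749652 to 55750500 with 1121.76 and 55756215 to 55756937 with 1030.85. KLF4 had 6, and the highest, on chromosome 9 at 110006007 to 110006561, scored 1412.38 with its centre 245.8 kb downstream. TERT had 8 peaks there, 0 of them among that 25%. These peaks were named after their values were seen, and none was assigned to a gene.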
